A study of Homo sapiens with 9 samples.

Results

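Type I interferon response genes are the genes that cells switch on after interferon alpha or beta binds its receptor. The 38 genes described here were chosen by name and were all found among 58735 named rows of the count table: 26 antiviral and other effectors, 2 chemokines, 2 RNA sensors, 5 transcription factors and 3 genes of antigen presentation. Total RNA of MDA-MB-231, an established triple-negative breast cancer cell line held for 6 h under hypoxia, which is a lowered oxygen supply, was sequenced to measure transcript levels. The 9 libraries carried 1 of 2 genotype labels, sgL1 (6 libraries) or sgCtrl (3 libraries), and all of them came from hypoxic cells. The design text speaks of cells lacking UFL1 or UFM1, whereas the title speaks of knockdown. UFL1 is the ligase that attaches the small protein UFM1 to other proteins, a reaction called UFMylation. The labels do not explain sgL1 and sgCtrl, which are taken here to mean a guide that targets UFL1 and a guide that serves as control. Neither the guide sequences nor whether the cells were clones or pools is given in the sources used here. No label states whether each library is a culture of its own, and p-values therefore measure only the spread between these libraries, which may be technical.

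Interferon alpha and beta act through a receptor made of IFNAR1 and IFNAR2 and through the kinases JAK1 and TYK2, which phosphorylate STAT proteins, STAT2 among them. The factor ISGF3, which holds STAT2 and IRF9, binds the interferon-stimulated response element (ISRE) in promoters. The genes it switches on encode proteins that block virus entry, translation and replication, further sensors and transcription factors, and parts of the antigen presentation machinery. Many of these genes are also expressed at a low level without added interferon, in tumour cell lines among others.

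The ISRE core was searched as GAAA, any 2 bases and GAAA again, which reads TTTC, any 2 bases and TTTC on the other strand, in windows of 300 bases that reach from 250 bases before each RefSeq transcription start (build GRCh38.p14). In the set of RefSeq promoter windows used here, 30 of the 38 genes were matched, DDX58 under its newer symbol RIGI. The promoters of IFIT2, IFITM2, MX2, OAS2, OASL, USP18, IRF7 and NLRC5 were not analysed here. Counting a gene once if any of its windows held the core, it was found for 21 of the 30 genes, or 70%, against 4.38% of all genes with a window (1195 of 27305). It was found for 16 of 20 effectors and for 5 of 10 genes of the other roles. The following stretches of 60 bases, written 5′ to 3′ on the strand of the gene with 1 match to the core in capitals, show the element in genes with and without a call. In the first 3 genes the RNA rose in sgL1 libraries, and in the other 5 the change did not pass the test, although IFIT1 had a log2 fold change between those of IFITM3 and ISG15.
ISG15, chr1:1013359-1013418, plus strand: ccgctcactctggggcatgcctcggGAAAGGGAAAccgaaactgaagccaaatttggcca
IFITM1, chr11:313975-314034, plus strand: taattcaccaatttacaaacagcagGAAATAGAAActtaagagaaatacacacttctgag
IFITM3, chr11:320878-320937, minus strand: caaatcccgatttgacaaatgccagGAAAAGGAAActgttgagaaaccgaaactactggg
IFIT1, chr10:89392482-89392541, plus strand: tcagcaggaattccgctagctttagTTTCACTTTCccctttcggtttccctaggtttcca
IFIT3, chr10:89327816-89327875, plus strand: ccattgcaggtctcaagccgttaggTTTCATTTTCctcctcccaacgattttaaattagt
IFI6, chr1:27672314-27672373, minus strand: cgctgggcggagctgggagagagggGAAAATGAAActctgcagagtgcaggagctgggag
OAS3, chr12:112938306-112938365, plus strand: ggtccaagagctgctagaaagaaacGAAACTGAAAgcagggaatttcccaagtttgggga
B2M, chr15:44711348-44711407, plus strand: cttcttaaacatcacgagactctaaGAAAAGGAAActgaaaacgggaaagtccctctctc

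The divergent pair PARP9 and DTX3L shared 1 match, TTTCAGTTTC at chr3:122564332-122564341, at position -41 from a start of PARP9 and -6 from that of DTX3L. A core was found for 4 of the 4 genes that rose and had a window (ISG15, IFITM1, IFITM3 and ERAP1), and for 14 of the 21 tested genes with a window that were not called. The gamma-activated site TTCNNNGAA, a palindrome that STAT dimers bind, was found for 8 of 30 genes (26.7%) against 9.38% of all genes with a window. These matches describe letters in a window and not binding.

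The libraries held 15420073 to 17038409 counts on named genes, and 34 of the 38 genes had enough counts to be tested. UFL1, measured first as a check of the labels, stood at 15.2, 12.9, 12.9, 22.8, 20 and 21.2 CPM (counts scaled to library size, here with TMM factors) in sgL1 libraries 1 to 6 and at 27.4, 25.3 and 25.3 CPM in sgCtrl libraries. All sgL1 libraries were thus below all sgCtrl libraries, and sgL1 libraries 1 to 3 lay below 4 to 6. The log2 fold change was -0.57 (SE 0.195), with an adjusted p of 0.126 by edgeR. An exact permutation test, two-sided over 84 splits, gave p = 0.0238, where 0.0119 is the smallest possible. Between sgL1 libraries 1 to 3 and 4 to 6 it differed by -0.65 (SE 0.10, edgeR adjusted p = 0.000406). That split was chosen because UFL1 stood at 2 levels, so this p is no independent test of the difference. UFM1 stood at 55.8 ± 4.11 CPM in sgL1 (SD, n = 6) and 49.6 ± 1.69 CPM in sgCtrl (SD, n = 3), with an edgeR adjusted p of 0.0862. The groups overlapped, and the exact permutation test gave p = 0.0357 for UFM1. Against sgCtrl it differed by 0.119 on the log2 scale in sgL1 libraries 1 to 3 (edgeR adjusted p = 0.237) and by 0.219 in 4 to 6 (0.0131). The cells carried high levels of the basal line markers VIM, CD44, AXL and MSN. Summed CPM over 8 such markers ran from 5974 to 6251 in sgL1 and from 6321 to 6398 in sgCtrl, so that the sum was lower in all sgL1 libraries. The 8 markers moved both ways: CD44 rose by 0.34 on the log2 scale (edgeR adjusted p = 2.71e-08), whereas AXL, CAV1, EGFR and ZEB1 fell and VIM, MSN and FN1 were not called. Over 9 luminal markers the sums ran from 424.2 to 459.7 CPM in sgL1 and from 429.7 to 451.3 CPM in sgCtrl. Most of the sum came from KRT18 (240.8 CPM in sgL1, 253.6 in sgCtrl) and KRT19 (101.4 and 99.6), whereas ESR1 and CDH1 stayed under 0.5 CPM on average in both groups. Of 7 tested luminal markers 1 was called: FOXA1 rose by 0.46 on the log2 scale (edgeR adjusted p = 0.000355).

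**Figure D1:**
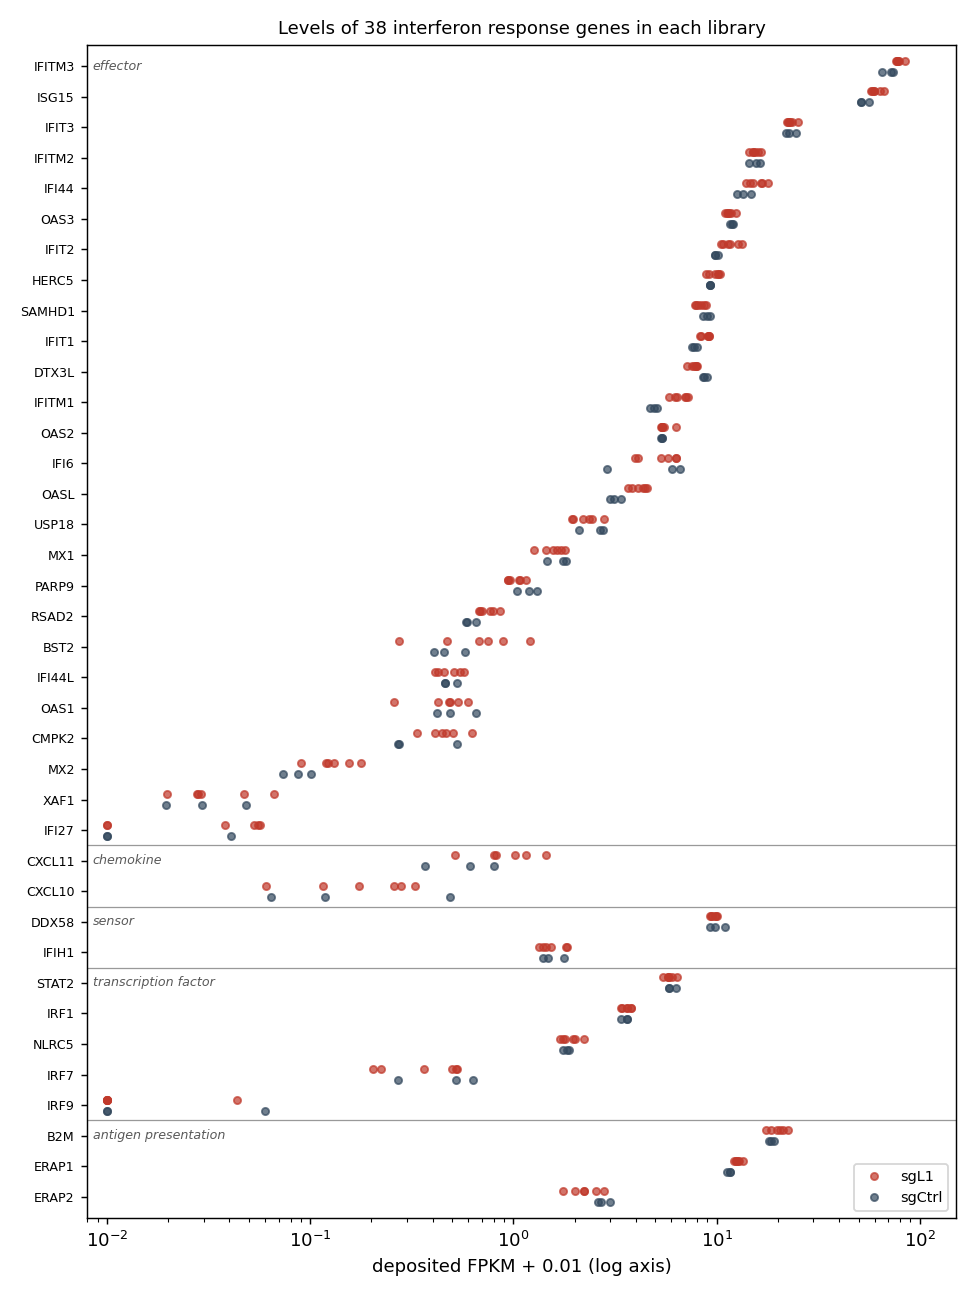
Deposited FPKM (fragments scaled to gene length and library size) plus 0.01, on a log axis, for each of the 38 interferon response genes in each of 6 sgL1 (red) and 3 sgCtrl (dark blue) libraries, ordered by role and mean level. IFITM3 and ISG15 stand highest, at means of 76.0 and 58.2 FPKM over all libraries, and for most genes the points of both groups lie on top of each other.

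Levels per length covered a wide range: 26 of the 38 genes had a mean of at least 1 FPKM and 9 had at least 10 FPKM. IFITM3, a membrane protein that blocks the fusion of viruses in endosomes, led with 78.8 ± 2.84 FPKM in sgL1 (SD, n = 6) and 70.3 ± 4.57 FPKM in sgCtrl (SD, n = 3). ISG15, a ubiquitin-like protein that is conjugated to other proteins, followed with 60.8 ± 3.55 FPKM in sgL1 and 53.0 ± 3.05 FPKM in sgCtrl. IFIT3, which forms a complex with IFIT1 and IFIT2 on viral RNA, came next at 23.1 ± 1.07 FPKM in sgL1 and 23.1 ± 1.41 FPKM in sgCtrl. After these 3 came B2M, IFITM2, IFI44, ERAP1, OAS3 and IFIT2, with means between 11.1 and 19.5 FPKM over all libraries. MX1, a dynamin-like GTPase that traps viral nucleocapsids and is often used as a reporter of interferon, had only 1.56 ± 0.195 FPKM in sgL1 and 1.67 ± 0.188 FPKM in sgCtrl. At the low end, IFI27, XAF1, CXCL10, IRF9 and BST2 averaged under 1 CPM in both groups.

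Of the 34 tested genes, 6 rose and 1 fell in sgL1 against sgCtrl at an edgeR adjusted p under 0.05. The genes that rose were ISG15, IFIT2, IFITM1, IFITM3, OASL and ERAP1, with folds of 1.11 to 1.36, and the gene that fell was DTX3L, at a fold of 0.884. As shares of the tested genes, 17.6% rose and 2.94% fell; over all 15242 genes tested, 5.52% rose and 3.98% fell, or 9.49% in either direction. The median log2 fold change was 0.048 over the 34 genes and 0.002 over all genes, and 22 of the 34 genes had a value above 0. In bulk RNA, a change in every cell and a change in the share of cells that express a gene cannot be told apart. The values ranged from -0.29 to 0.70. The calls were small and rested on few libraries: each of the 7 was lost when some single library was left out, as given with each gene.

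By role, 24 of the 34 tested genes were effectors, of which 5 rose and 1 fell (20.8% and 4.17%, against 5.52% and 3.98% of all tested genes), with a median log2 fold change of 0.065. Of the 10 tested genes of the other roles, 1 rose and 0 fell, with a median of 0.020. Whether effectors and the other roles differ was not tested. Effector FPKM summed to 274.8 to 285.9 in sgL1 libraries and to 250.6 to 265.0 in sgCtrl libraries, a sum that IFITM3 and ISG15 dominate. Effector CPM summed to 741.4 to 772.3 in sgL1 and to 728.5 to 732.1 in sgCtrl, so that the effector sums were apart on both scales. For all 38 genes, summed FPKM ran from 334.7 to 344.2 in sgL1 and from 309.1 to 321.2 in sgCtrl, also apart. Summed CPM of all 38 genes ran from 1099 to 1177 in sgL1 and from 1094 to 1106 in sgCtrl, where the groups overlapped.

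**Figure D2:**
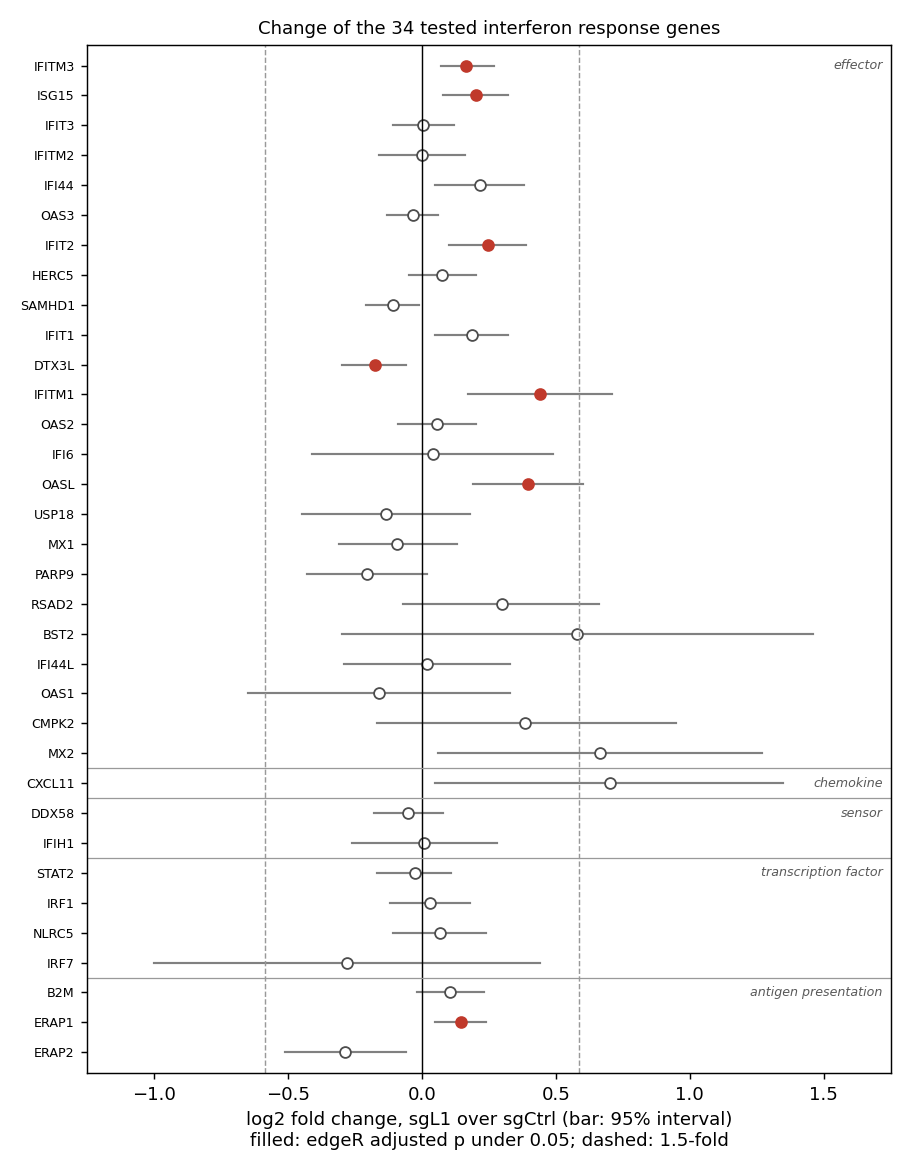
Log2 fold change of sgL1 over sgCtrl (horizontal axis) with its 95% interval for the 34 tested interferon response genes, grouped by role and ordered by level; filled points have an edgeR adjusted p under 0.05 and dashed lines mark a 1.5-fold change. The 7 filled points lie within the dashed lines, and 25 of the 34 intervals do so as well.

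OASL, a 2′-5′ oligoadenylate synthetase-like protein that lacks synthetase activity and enhances RIG-I signalling, gave the smallest p among the effectors. OASL had 14.5, 13, 13.6, 15.6, 15.4 and 16.1 CPM in sgL1 libraries 1 to 6, against 10.5, 12 and 11 CPM in sgCtrl libraries. All 6 sgL1 values were above all 3 sgCtrl values. It rose by 0.40 on the log2 scale (SE 0.098, edgeR adjusted p = 0.00781), and the call was kept in 8 of 9 fits that each left out a library; without sgCtrl 1 the adjusted p was 0.071. OASL lies on chromosome 12 (121019111 to 121039242, minus strand; coordinates here and below are GENCODE release 29, GRCh38).

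The other oligoadenylate synthetases sit together elsewhere on chromosome 12 and make the messenger that activates RNase L. OAS1 averaged 2.27 ± 0.576 CPM in sgL1 (SD, n = 6) and 2.54 ± 0.597 CPM in sgCtrl (SD, n = 3). OAS2 averaged 35 ± 2.35 CPM in sgL1 and 33.7 ± 0.233 CPM in sgCtrl, and OAS3 averaged 96.0 ± 4.30 CPM in sgL1 and 98.3 ± 1.25 CPM in sgCtrl. Their log2 fold changes of -0.16, 0.06 and -0.03 had edgeR adjusted p of 0.762, 0.713 and 0.756. The intervals ran from -0.09 to 0.20 for OAS2 and from -0.13 to 0.06 for OAS3, while that of the low gene OAS1 was wide, -0.65 to 0.33.

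IFIT2, an RNA-binding protein that limits translation, lies with IFIT1 and IFIT3 on chromosome 10 (89283694 to 89309276, plus strand). IFIT2 had 48.3, 44.0, 43.7, 55.4, 47.0 and 52.3 CPM in sgL1 libraries, against 42.0, 40.4 and 40.2 CPM in sgCtrl libraries. Every sgL1 library was above every sgCtrl library, with 3 of the 4 highest values in libraries 4 to 6. The rise was 0.24 on the log2 scale (SE 0.071, edgeR adjusted p = 0.0241). It lost its call without any 1 of the 3 sgCtrl libraries or without sgL1 6, with adjusted p up to 0.121.

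IFIT1, which binds RNA that lacks the 2′-O-methylated cap of the host, had 42.0, 38.8, 38.4, 42.6, 42.0 and 42.8 CPM in sgL1 libraries, against 36.0, 35.4 and 37.0 CPM in sgCtrl libraries. The groups did not overlap, yet the log2 fold change of 0.18 (SE 0.064, 95% interval 0.05 to 0.32) missed the threshold, at an edgeR adjusted p of 0.0689. IFIT3 had 62.3, 59.8, 61.7, 60.2, 58.8 and 66.8 CPM in sgL1 libraries, against 58.4, 65.7 and 60.2 CPM in sgCtrl libraries. Here the groups overlapped throughout, at a log2 difference of 0.00 (SE 0.056, interval -0.11 to 0.12, edgeR adjusted p = 0.983). Neighbours in 1 gene cluster thus differed in their values, a difference between genes that was not tested.

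IFITM1, a sister of IFITM3 that acts at the plasma membrane, had 7.84, 6.34, 6.81, 7.57, 6.97 and 7.72 CPM in sgL1 libraries, against 5.10, 5.52 and 5.31 CPM in sgCtrl libraries. All sgL1 values exceeded all sgCtrl values, and the rise of 0.44 on the log2 scale (SE 0.130, edgeR adjusted p = 0.0282) was the largest among the called genes. IFITM3 had 108, 114, 106, 104, 106 and 105 CPM in sgL1 libraries, against 98.2, 88.5 and 99.7 CPM in sgCtrl libraries. These groups were apart as well, by 0.17 on the log2 scale (SE 0.049, edgeR adjusted p = 0.0285). The third gene of the cluster, IFITM2, averaged 24.1 ± 1.21 CPM in sgL1 (SD, n = 6) and 24.1 ± 1.60 CPM in sgCtrl (SD, n = 3), with an interval from -0.16 to 0.16.

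The 3 IFITM genes on chromosome 11 are hard to count apart. In GENCODE, 32.5% of the exon bases of IFITM1 lie in exons of IFITM2 on the same strand, and of the 50-base words of IFITM3 transcripts 14.0% occur in IFITM2 and 7.3% in IFITM1. The sources used here do not say how the authors' counting treated such reads, and the split among these genes is uncertain. Leaving out single libraries removed the call of IFITM1 in 5 of 9 fits (adjusted p up to 0.127) and that of IFITM3 in 4 of 9 (up to 0.285, with all 3 sgCtrl libraries and sgL1 1, 5 and 6 among those whose removal ended 1 or both calls).

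ISG15, on chromosome 1 (1001138 to 1014540, plus strand), had 56.8, 62.9, 56.4, 54.6, 60.8 and 55.0 CPM in sgL1 libraries, against 53.6, 48.6 and 48.4 CPM in sgCtrl libraries. The lowest sgL1 value, in library 4, lay just above the highest sgCtrl value, in library 1. ISG15 rose by 0.20 on the log2 scale (SE 0.060, edgeR adjusted p = 0.0288). The call held in 4 of 9 fits with 1 library left out, and was lost without sgCtrl 2, sgCtrl 3 or sgL1 1, 2 or 5 (adjusted p up to 0.176).

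Members of the same list that put ISG15 on its targets or take it off showed no called change. HERC5, the main ISG15 ligase in human cells, averaged 46.9 ± 2.91 CPM in sgL1 (SD, n = 6) and 44.6 ± 0.167 CPM in sgCtrl (SD, n = 3), with an interval from -0.05 to 0.20. USP18, the protease that removes ISG15 and also damps receptor signalling, averaged 4.88 ± 0.681 CPM in sgL1 and 5.37 ± 0.778 CPM in sgCtrl (interval -0.45 to 0.18). Its reads may be split with the near copy USP41, which shares 23.0% of its 50-base words. The 4 other genes on a list of ISG15 conjugation (UBA7, UBE2L6, HERC6 and USP41) were tested, with 0 calls by edgeR, 0 at an unadjusted p under 0.05 and 0 calls by DESeq2. As edgeR called 9.49% and DESeq2 10% of all tested genes, 0 of 4 does not set this list apart.

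DTX3L, a ubiquitin ligase that works as a pair with PARP9 and ubiquitinates histones and viral proteases, was the 1 gene that fell. It had 46.6, 42.2, 47.0, 45.8, 45.0 and 47.4 CPM in sgL1 libraries, against 50.5, 53.1 and 51.2 CPM in sgCtrl libraries. All sgL1 values lay below all sgCtrl values, with a log2 difference of -0.18 (SE 0.058) and an adjusted p of 0.0497 by edgeR. With the p this close to the threshold, the call held in 3 of 9 fits with a library left out and was lost without any 1 sgCtrl library or sgL1 1, 2 or 5 (adjusted p up to 0.242).

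PARP9, the ADP-ribosyltransferase partner of DTX3L, averaged 9.14 ± 0.841 CPM in sgL1 (SD, n = 6) and 10.6 ± 1.21 CPM in sgCtrl (SD, n = 3). Its log2 fold change of -0.21 was not called (interval -0.43 to 0.02, edgeR adjusted p = 0.294). The genes overlap head to head by 217 bases on opposite strands, and whether counting used the strand is not given in the sources used here.

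**Figure D3:**
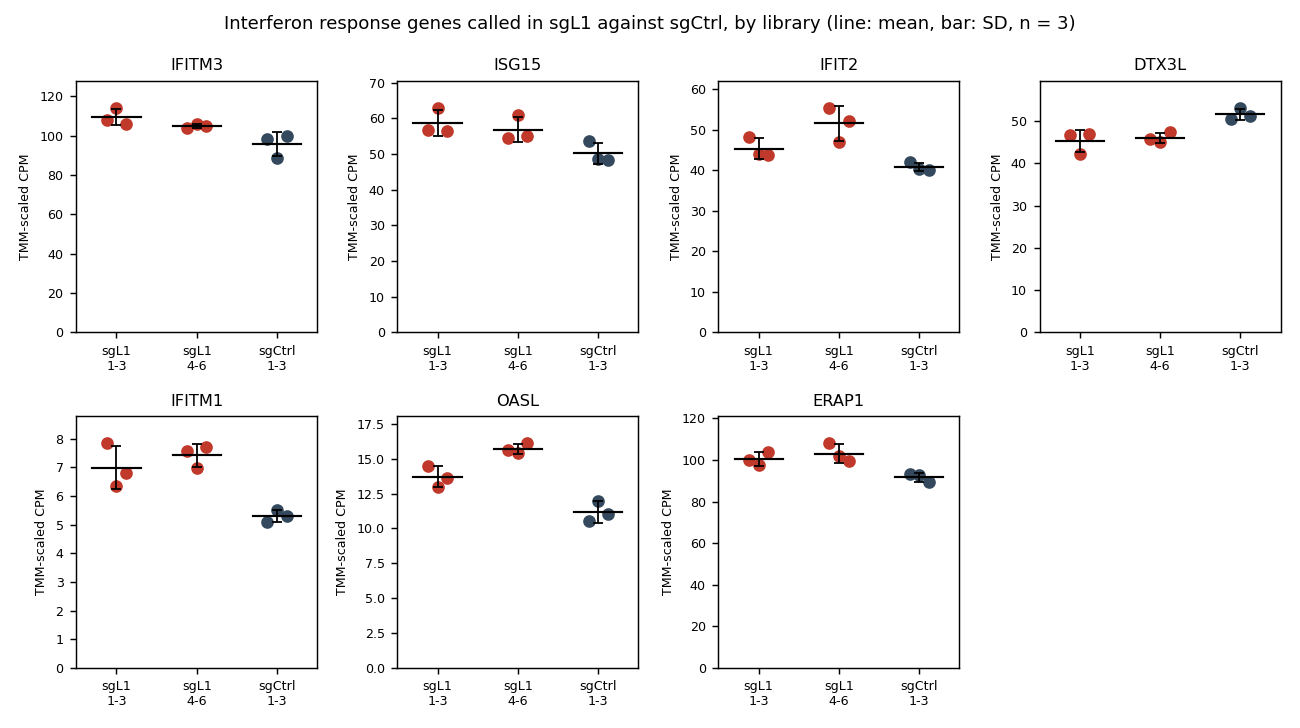
TMM-scaled CPM (vertical axis, from 0) of the 7 called interferon response genes in sgL1 libraries 1 to 3, sgL1 libraries 4 to 6 and sgCtrl libraries 1 to 3; points are libraries, lines are means and bars are SD (n = 3). Each gene separates the 6 sgL1 from the 3 sgCtrl libraries, and OASL and IFIT2 stand higher on average in sgL1 libraries 4 to 6 than in 1 to 3.

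The remaining tested effectors were not called. IFI44, a cytoplasmic protein of uncertain mechanism, averaged 32.5 ± 3.02 CPM in sgL1 (SD, n = 6) and 28.0 ± 2.15 CPM in sgCtrl (SD, n = 3), with an interval from 0.05 to 0.38 and an edgeR adjusted p of 0.095. Its neighbour IFI44L averaged 4.93 ± 0.671 CPM in sgL1 and 4.86 ± 0.405 CPM in sgCtrl. SAMHD1, which degrades deoxynucleotides and so restricts reverse transcription, averaged 94.0 ± 4.66 CPM in sgL1 and 101.5 ± 4.01 CPM in sgCtrl, with an interval from -0.21 to -0.01 and an edgeR adjusted p of 0.186. For both IFI44 and SAMHD1 the groups overlapped and the interval for a single gene lay to 1 side of 0, without a call once adjusted over all genes.

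RSAD2 (viperin), which makes a chain-terminating nucleotide, had 4.15, 3.66, 3.85, 3.28, 3.25 and 3.38 CPM in sgL1 libraries, against 2.81, 2.82 and 3.13 CPM in sgCtrl libraries. The groups did not overlap, and the log2 fold change was 0.30 (SE 0.178, edgeR adjusted p = 0.358). Its divergent neighbour CMPK2, a mitochondrial nucleotide kinase, averaged 1.97 ± 0.425 CPM in sgL1 and 1.51 ± 0.635 CPM in sgCtrl. In all, 8 tested genes were higher in every sgL1 than in every sgCtrl library (the 6 that rose, IFIT1 and RSAD2) and 1 was lower (DTX3L), where 7.61% of all tested genes were higher and 6.4% lower in this sense.

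The GTPases MX1 and MX2, which share a locus on chromosome 21, were both low. MX1 averaged 13.6 ± 1.70 CPM in sgL1 (SD, n = 6) and 14.5 ± 1.63 CPM in sgCtrl (SD, n = 3), with an interval from -0.31 to 0.13. MX2 averaged 1.62 ± 0.397 CPM in sgL1 and 1.01 ± 0.180 CPM in sgCtrl, and its log2 fold change of 0.66 had a wide interval (0.06 to 1.27, edgeR adjusted p = 0.176). IFI6, a mitochondrial protein that inhibits apoptosis, varied within both groups: 3.45 to 5.51 CPM in sgL1 libraries and 2.51, 5.24 and 5.74 CPM in sgCtrl libraries. BST2 (tetherin), which holds budding virions at the cell surface, averaged 0.793 ± 0.370 CPM in sgL1 and 0.529 ± 0.0994 CPM in sgCtrl, and its interval of -0.30 to 1.46 leaves its change undetermined.

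IFI27 and XAF1, both linked to apoptosis, were at the limit of detection and were not tested. IFI27 had 3, 0, 3, 3, 2 and 0 counts in sgL1 libraries and 0, 0 and 2 counts in sgCtrl libraries. XAF1 had 1, 4, 6, 2, 2 and 2 counts in sgL1 libraries and 4, 1 and 2 counts in sgCtrl libraries. At these depths 3 counts, the limit that a count of 0 allows, correspond to 0.177 to 0.194 CPM, so no difference was detectable for either gene.

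The chemokines CXCL10 and CXCL11 recruit T cells through the receptor CXCR3. CXCL10 had 3, 2, 6, 1, 5 and 5 counts in sgL1 libraries and 2, 9 and 1 counts in sgCtrl libraries, too few for a test. CXCL11 had 0.972, 1.55, 2.21, 2.74, 1.95 and 1.53 CPM in sgL1 libraries, against 1.53, 0.690 and 1.15 CPM in sgCtrl libraries. The groups overlapped at this low level, and its log2 fold change of 0.70, the highest of the 34 tested genes, was not called (SE 0.317, interval 0.05 to 1.35, edgeR adjusted p = 0.189).

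Neither RNA sensor was called. DDX58 (RIG-I), which detects RNA with a 5′ triphosphate, averaged 42.4 ± 1.40 CPM in sgL1 (SD, n = 6) and 43.9 ± 3.91 CPM in sgCtrl (SD, n = 3), with an interval from -0.18 to 0.08. IFIH1 (MDA5), which detects long double-stranded RNA, averaged 7.99 ± 1.10 CPM in sgL1 and 7.94 ± 1.01 CPM in sgCtrl, with an interval from -0.26 to 0.28. For both genes the interval excludes a change of 1.5-fold in either direction, and neither had an unadjusted p under 0.05 or a call by DESeq2. With 9.49% of all tested genes called by edgeR and 10% by DESeq2, 0 of 2 does not set the sensors apart.

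Of the 4 tested transcription factors, 0 were called by edgeR or by DESeq2, and 0 had an unadjusted p under 0.05. Over all tested genes edgeR called 9.49% and DESeq2 10%, and 3272 of 15242 had an unadjusted edgeR p under 0.05. At such shares, 0 of 4 does not set these factors apart. The median log2 fold change of the 4 factors was 0.001. STAT2, a part of ISGF3, averaged 36.1 ± 1.91 CPM in sgL1 (SD, n = 6) and 36.8 ± 1.92 CPM in sgCtrl (SD, n = 3; interval -0.17 to 0.11). IRF1, an early activator in interferon signalling, averaged 28.3 ± 1.40 CPM in sgL1 and 27.7 ± 1.14 CPM in sgCtrl (interval -0.12 to 0.18), with 22.0% of its exon bases under exons of C5orf56 on the other strand. NLRC5, the activator of class I antigen presentation genes, averaged 23.7 ± 2.49 CPM in sgL1 and 22.6 ± 0.626 CPM in sgCtrl (interval -0.11 to 0.24). IRF7, which amplifies the transcription of interferon genes, was near 1 CPM and could not be judged, with an interval from -1.0 to 0.44.

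IRF9, the DNA-binding part of ISGF3, had 2, 0, 0, 0, 0 and 0 counts in sgL1 libraries and 3, 0 and 0 counts in sgCtrl libraries, and its level cannot be read from these files. In GENCODE 48.4% of its exon bases lie in exons of the read-through gene AL136295.5 on the same strand, which itself had 0 or 1 count in each library. Of the 26 protein-coding genes within 100 kb of IRF9, 14 (53.8%) had at most 27 counts over all libraries, a mean of 3 a library, against 33.2% of all protein-coding genes. Its neighbours IPO4, CHMP4A and TM9SF1, chosen after their values were seen, had totals of 5, 9 and 66 counts over all 9 libraries. IPO4 is a nuclear import factor that is widely expressed. Not all neighbours were low: NEDD8 and PSME2, chosen in the same way, had totals of 357 and 7920 counts. The part of the authors' counting in this was not tested.

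Of the antigen presentation genes, ERAP1, the aminopeptidase of the endoplasmic reticulum (ER) that trims peptides for class I molecules, rose. ERAP1 had 99.8, 97.6, 104, 108, 102 and 99.3 CPM in sgL1 libraries, against 93.1, 93.0 and 89.3 CPM in sgCtrl libraries. All sgL1 values were above all sgCtrl values, by 0.15 on the log2 scale (SE 0.047, edgeR adjusted p = 0.0446). The call was the least stable of the 7: it held in 1 of 9 fits with a library left out, the one without sgL1 2, with adjusted p up to 0.219 in the others. It was also lost with upper-quartile scaling (0.0591) and library-size scaling (0.0573). Of its exon bases, 3.8% lie under exons of the well expressed gene CAST on the other strand.

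ERAP2, its relative on chromosome 5, had 16.6, 14.9, 13.1, 19.1, 16.7 and 20.9 CPM in sgL1 libraries, against 20.1, 22.3 and 19.4 CPM in sgCtrl libraries. Of the sgL1 libraries, 6 alone reached into the sgCtrl range, and the log2 fold change of -0.29 (SE 0.109, interval -0.51 to -0.06) was not called, at an edgeR adjusted p of 0.111. B2M, the light chain of class I molecules, averaged 122.5 ± 10.9 CPM in sgL1 (SD, n = 6) and 113.9 ± 2.92 CPM in sgCtrl (SD, n = 3), with an interval from -0.02 to 0.23 and an edgeR adjusted p of 0.325.

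The width of the intervals went with the level of the gene. Among the 21 tested genes with a mean of at least 10 CPM, 20 had a 95% interval within 1.5-fold of no change, whereas the wide intervals belonged to MX2, BST2, CXCL11, IRF7 and other genes near or below a few CPM. Of all 34 tested genes, 13 had an unadjusted p under 0.05, as had 3272 of all 15242 genes tested.

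Because UFL1 stood at 2 levels in sgL1 libraries, libraries 1 to 3 and 4 to 6 were also set against sgCtrl in turn. The labels do not give this split, and both comparisons use the same sgCtrl libraries. In sgL1 libraries 1 to 3, where UFL1 was lowest, 2 of the 34 genes rose (IFITM3 and ISG15) and 3 fell (DTX3L, SAMHD1 and ERAP2), where 8.06% of all 14812 tested genes rose and 7.11% fell, 15.2% in all. In sgL1 libraries 4 to 6, 7 rose (IFIT1, IFIT2, IFI44, IFITM1, OASL, B2M and ERAP1) and 0 fell by edgeR, with 12 of the 34 at an unadjusted p under 0.05 in either direction. Over all 14830 tested genes 6.73% rose and 5.57% fell, 12.3% in all, and 3536 had an unadjusted p under 0.05.

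Of the genes called in 1 comparison and not in the other, IFIT2 differed from sgCtrl by 0.15 on the log2 scale in sgL1 libraries 1 to 3 (edgeR adjusted p = 0.144) and by 0.34 in libraries 4 to 6 (adjusted p = 0.000209). OASL differed by 0.29 in libraries 1 to 3 (adjusted p = 0.0768) and by 0.49 in libraries 4 to 6 (adjusted p = 0.000694). IFI44 differed by 0.10 in libraries 1 to 3 (edgeR adjusted p = 0.473) and by 0.32 in libraries 4 to 6 (adjusted p = 0.00139). For IFIT2, OASL and IFI44, and also for IFIT1 and IFITM1, the larger value stood in the libraries with more UFL1 RNA.

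ISG15 and IFITM3 had the larger value in the libraries with less UFL1 RNA. ISG15 differed from sgCtrl by 0.23 in libraries 1 to 3 (edgeR adjusted p = 0.0149) and by 0.18 in libraries 4 to 6 (adjusted p = 0.0548). IFITM3 differed by 0.20 in libraries 1 to 3 (edgeR adjusted p = 0.007) and by 0.13 in libraries 4 to 6 (adjusted p = 0.0555).

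Of the antigen presentation genes, ERAP2 differed by -0.47 in libraries 1 to 3 (edgeR adjusted p = 0.0014) and by -0.13 in libraries 4 to 6 (adjusted p = 0.452). B2M differed by 0.02 in libraries 1 to 3 (adjusted p = 0.874) and by 0.19 in libraries 4 to 6 (adjusted p = 0.00213). The test of the difference itself, sgL1 libraries 1 to 3 against 4 to 6, called 0 of the 34 genes by edgeR and 0 by DESeq2. Over all 14837 genes edgeR called 4% (2.14% higher and 1.86% lower). An unadjusted p under 0.05 was reached by 4 of the 34 genes and by 3001 of all genes. In that test IFIT2 had an edgeR adjusted p of 0.122, OASL 0.27, IFI44 0.0727, ERAP2 0.0594 and B2M 0.0657. By log2 fold change, 10 of the 34 genes were higher in libraries 1 to 3, as were 7463 of all 14837 genes. The median was -0.044 over the 34 genes and 0.001 over all genes. The interferon response genes were therefore not shown to differ between the 2 sets of sgL1 libraries.

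Upstream of the response, the interferon genes themselves were almost silent. Of 10 interferon genes on the list, 9 had a count of 0 in all 9 libraries, which allows up to 0.194 CPM in a library, and IFNL1 had a mean of 0.0106 CPM in sgL1 and 0 in sgCtrl. Of 9 receptor chains and kinases, 8 were tested and 0 were called by edgeR, with 1 at an unadjusted p under 0.05 and 0 calls by DESeq2. Among all tested genes, 9.49% were called by edgeR and 10% by DESeq2, and 3272 of 15242 had an unadjusted edgeR p under 0.05. IFNAR1 averaged 80.6 CPM in sgL1 and 79.2 CPM in sgCtrl. JAK1 averaged 118.1 CPM in sgL1 and 115.1 CPM in sgCtrl, and TYK2 averaged 140.9 CPM in sgL1 and 148.1 CPM in sgCtrl. IFNAR2 had only 1.25 CPM in sgL1 and 0.934 CPM in sgCtrl, and 44.2% of its exon bases lie in a read-through gene on the same strand. These receptor genes were chosen after their values were seen.

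Of 8 other STAT and IRF factors, 5 were tested and 0 were called by edgeR, with 2 at an unadjusted p under 0.05 and 1 call by DESeq2. That call was STAT3, which carries the signal of interleukin-6 and related cytokines and is named here after its values were seen: its log2 fold change was 0.12, with an adjusted p of 0.0239 by DESeq2 and 0.0561 by edgeR. The median over the 5 genes was 0.136. Over all tested genes edgeR called 9.49% and DESeq2 10%, and 3272 of 15242 had an unadjusted edgeR p under 0.05. In sgL1 libraries 1 to 3 alone, 40% of the 5 rose by edgeR, against 8.06% of all tested genes. In libraries 4 to 6 alone, 0% of 4 tested genes rose, against 6.73%.

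A list of 17 genes covered sensors of nucleic acids or lipopolysaccharide and genes that carry such signals. Of these, 16 were tested, 3 rose and 0 fell (18.8% and 0%, against 5.52% and 3.98% of all tested genes), with a median log2 fold change of 0.083. IKBKE, a kinase that phosphorylates IRF3, averaged 23.2 ± 1.97 CPM in sgL1 (SD, n = 6) and 14.5 ± 2.10 CPM in sgCtrl (SD, n = 3), a rise of 0.68 on the log2 scale (SE 0.096, edgeR adjusted p = 1.01e-05). TMEM173 (STING), the ER adaptor of cytosolic DNA sensing, averaged 37.8 ± 3.58 CPM in sgL1 and 29.5 ± 1.55 CPM in sgCtrl, a rise of 0.36 (SE 0.078, edgeR adjusted p = 0.00253). TLR4, the lipopolysaccharide receptor, averaged 113.3 ± 8.57 CPM in sgL1 and 94.2 ± 2.12 CPM in sgCtrl, a rise of 0.27 (SE 0.055, edgeR adjusted p = 0.00142). For these 3 genes no sgL1 library overlapped with sgCtrl, and the call was kept whichever library was left out. On the log2(FPKM + 1) and log2(FPKM + 0.1) scales TLR4 and TMEM173 lost the call (limma adjusted p up to 0.0886 for TLR4 and 0.072 for TMEM173), and IKBKE kept it. IKBKE also lies in the NF-kB pathway.

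Of 10 genes that brake interferon signalling, all tested, 0 rose and 1 fell, a share of 10% against 9.49% of all tested genes called in either direction. SOCS2, a suppressor of cytokine signalling better known for growth hormone, averaged 7.39 ± 1.65 CPM in sgL1 (SD, n = 6) and 13.9 ± 0.218 CPM in sgCtrl (SD, n = 3). It fell by 0.91 on the log2 scale (SE 0.138, edgeR adjusted p = 5.97e-05), and the groups did not overlap. SOCS1 and SOCS3, the better known brakes of the receptor and chosen after their values were seen, were not called (edgeR adjusted p = 0.622 and 0.287).

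A further list of 51 interferon-stimulated effectors outside the 38 held 45 tested genes, of which 6 rose and 4 fell (13.3% and 8.89%, against 5.52% and 3.98% of all tested genes), with a median log2 fold change of 0.028. The 4 with the smallest p moved both ways. DDX60L, a helicase-like protein, averaged 24.7 ± 2.55 CPM in sgL1 (SD, n = 6) and 34.9 ± 1.68 CPM in sgCtrl (SD, n = 3), and it fell by 0.50 on the log2 scale (SE 0.080, edgeR adjusted p = 6.52e-05). APOBEC3G, a cytidine deaminase that mutates retroviral DNA, averaged 7.46 ± 1.28 CPM in sgL1 and 3.96 ± 0.514 CPM in sgCtrl, and it rose by 0.92 (SE 0.159, edgeR adjusted p = 0.00019).

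TRIM14, a mitochondrial adaptor of RIG-I signalling, averaged 109.8 ± 4.59 CPM in sgL1 and 129.7 ± 5.69 CPM in sgCtrl, and it fell by 0.24 (SE 0.047, edgeR adjusted p = 0.000718). GBP5, a guanylate-binding GTPase induced above all by interferon gamma, averaged 2.49 ± 0.255 CPM in sgL1 and 0.956 ± 0.556 CPM in sgCtrl, and it rose by 1.38 (SE 0.296, edgeR adjusted p = 0.00205). Each of these 4 calls was kept whichever library was left out. APOBEC3G lost its call on the log2(FPKM + 1) scale (limma adjusted p = 0.0578) and GBP5 on the log2(FPKM + 0.1) scale (0.135).

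Class I antigen presentation beyond B2M, ERAP1 and ERAP2 could be read in part only. Of 16 genes, 8 were tested, 2 rose and 0 fell (25% and 0%, against 5.52% and 3.98% of all tested genes). Their log2 fold changes ran from -0.04 to 1.16, and the highest was not called. In sgL1 libraries 1 to 3 alone 50% of the 8 rose, against 8.06% of all tested genes, and in libraries 4 to 6 alone 12.5%, against 6.73%. HLA-B, named after its values were seen and not called, had 77 to 243 counts in sgL1 libraries and 72 to 88 in sgCtrl libraries. PDIA3, an ER oxidoreductase that assists class I assembly, averaged 357.1 ± 6.76 CPM in sgL1 (SD, n = 6) and 318.2 ± 14.7 CPM in sgCtrl (SD, n = 3), a rise of 0.17 (SE 0.039, edgeR adjusted p = 0.00443). CANX (calnexin), a chaperone of the same step, averaged 35.3 ± 2.34 CPM in sgL1 and 29.8 ± 2.64 CPM in sgCtrl, a rise of 0.24 (SE 0.075, edgeR adjusted p = 0.039). PDIA3 lost its call without sgCtrl 1 or 3 (adjusted p up to 0.0777), and CANX lost it without sgCtrl 1, sgCtrl 3 or sgL1 1, 2 or 3 (up to 0.241). Both are general ER folding proteins and not special to antigen presentation.

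The peptide transporter gene TAP1 and the immunoproteasome genes PSMB8 and PSMB9 lie in the MHC region of chromosome 6. From HLA-F to TAPBP (29722775 to 33314387), 134 of 149 protein-coding genes (89.9%) had at most 27 counts over all libraries. Of these, TAP1, PSMB8, PSMB9 and HLA-G were listed at 0 in every library. So were VPS52, RING1 and SLC39A7, and PFDN6 had a total of 1 count, although these genes serve functions of most cells (all named here after their values were seen). The counts of TAP1 and the other genes listed at 0 therefore cannot be taken as the levels of their RNA.

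Markers of other cells stayed low. Summed over 10 leukocyte markers, levels ran from 3.89 to 5.31 CPM in sgL1 and from 3.01 to 3.38 CPM in sgCtrl. The sum was thus higher in all sgL1 libraries. CD3E and MS4A1 were at 0 in every library, and CSF1R and CD14 made up most of the sum. CSF1R had a log2 fold change of 0.795 (edgeR adjusted p = 0.0596) and CD14 one of 0.138 (0.831). Against sgCtrl, CSF1R was called in sgL1 libraries 1 to 3 alone (0.966, edgeR adjusted p = 0.0247) and not in 4 to 6 (0.603, 0.248). Over 4 markers of plasmacytoid dendritic cells, which are specialised interferon producers, sums ran from 2.43 to 3.50 CPM in sgL1 and from 2.32 to 2.88 CPM in sgCtrl. Of these 4, CLEC4C and LILRA4 were at 0 in every library. Summed over 9 fibroblast and endothelial markers, levels ran from 24.5 to 29.6 CPM in sgL1 and from 16.7 to 20.5 CPM in sgCtrl, also higher in all sgL1 libraries. Of these 9, PDGFRB and PECAM1 rose by 0.67 and 0.75 on the log2 scale (edgeR adjusted p = 0.000837 and 0.000273), while COL1A2 and LUM were at 0 throughout. The part of these markers in the changes of the interferon response genes was not tested.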

How the data were processed

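The authors deposited whole-number read counts per gene, without normalization, and FPKM values (counts scaled to gene length and library size). Tools named in the submitters' processing notes are STAR 2.7.7a, featureCounts 2.0.0 and fastp 0.20.1, with the build GRCh38 (hg38). Settings, annotation release and use of strand: not given in the sources used here. The 38 genes, the other gene lists, the tests and the alternatives were chosen with earlier results of these data known. All columns of both tables belong to the 9 libraries; 627 rows without a gene symbol were excluded, which hold 0.358% to 0.410% of each library's counts.

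Counts as deposited were tested with edgeR 4.0.16 (R 4.3.3): filterByExpr, TMM scaling, robust quasi-likelihood F test with no covariate, and Benjamini-Hochberg adjustment over all tested genes (threshold 0.05). The SE was derived from the F statistic. Levels are TMM-scaled CPM, or deposited FPKM where genes are compared. The fit was first tested on simulated data for sgL1 against sgCtrl (15005 genes). Of genes changed 1.2-fold 46% were called, of those changed 1.5-fold 58%, 2-fold 68% and 3-fold 94%. Of the calls, 7.64% were unchanged genes, where 5% is the aim. An exact permutation test was added for UFL1 and UFM1. Intervals of fold changes come from the edgeR fit and include the spread between libraries; the floor of 3 counts covers counting error only, since no molecular identifiers are named. A gene at 20 CPM carries a counting error of 5.59%, and the common biological coefficient of variation was 6.53%. No library repeated another: chi-square per gene between libraries of 1 group was 2.3 to 9.29, where about 1 marks counting noise.

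Named in full are genes with a call and the 3 with the highest mean FPKM, and of each pathway list up to 4 called genes with the smallest p, with UFL1 and UFM1. For most other names the text says that the values were seen first. Genes picked out of the lists of cell type markers were also named after their values were seen, which the text does not say at each. The alternatives covered scaling (RLE, upper quartile, library size), DESeq2 1.42.0, no expression filter or 1 CPM in 3 libraries, limma 3.58.1 on log2(FPKM + 1) and log2(FPKM + 0.1), the first also with genes under a mean FPKM of 1 removed, fits without each single library, a replicate block, and sgL1 libraries 1 to 3 or 4 to 6 alone. Fold changes on the FPKM scales include the pseudocount and so understate low genes. Gene coordinates and exon overlaps came from GENCODE release 29, and promoter windows from RefSeq GRCh38.p14.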

Additional observations from a re-analysis of the deposited data

Results flagged for a closer look

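The level of OAS2 in 1 sgL1 library lay far from the others: library 6 had 39.8 CPM, against 33.7 to 34.7 CPM in the other 5 sgL1 libraries and 33.4 to 33.9 CPM in sgCtrl. The gap made up 0.838 of the range of the group. This was the 1 gap past Dixon's 95% limit in 46 groups of values checked, where chance alone passes it in about 1 of 20 groups. Without that library the log2 fold change of OAS2 stayed uncalled.

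UFL1 differed between sgL1 libraries 1 to 3 and 4 to 6 (edgeR adjusted p = 0.000406), but its own values had prompted this split. Besides UFL1, 3 tested genes of the pathway lists differed between these sets of libraries. TLR4 averaged 105.9 CPM in libraries 1 to 3 and 120.7 CPM in libraries 4 to 6 (adjusted p = 0.0204), both above the 94.2 CPM of sgCtrl. SOCS2 averaged 6.05 CPM in libraries 1 to 3 and 8.73 CPM in libraries 4 to 6 (adjusted p = 0.0392), both below the 13.9 CPM of sgCtrl. SOCS3 averaged 111.3 CPM in libraries 1 to 3 and 94.97 CPM in libraries 4 to 6 (adjusted p = 0.00852), the second close to the 95.1 CPM of sgCtrl.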

How the results depend on the processing

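The 6 rises and the fall among the interferon response genes kept their sign in all 21 settings, but not their calls. Rises numbered 2 with log2(FPKM + 1), 2 with log2(FPKM + 0.1), 2 with sgL1 libraries 1 to 3 alone, and 1 to 7 with 1 library left out (1 without sgCtrl 1 or sgCtrl 2, 2 without sgCtrl 3 or sgL1 1, 3 without sgL1 5 or sgL1 6). Falls numbered 0 on both FPKM scales and with sgL1 libraries 4 to 6 alone, 3 with libraries 1 to 3 alone, and 0 to 2 with 1 library left out (0 without any 1 sgCtrl library or sgL1 1, 2 or 5, and 2 without sgL1 6). Over all genes, 841 rose and 606 fell; on the FPKM scales 443 and 463 rose and 300 and 274 fell, libraries 1 to 3 alone gave 1053 falls, and leaving out 1 library gave 548 to 958 rises and 352 to 800 falls, fewest without single sgCtrl libraries. Between sgL1 libraries 1 to 3 and 4 to 6, the 317 higher and 276 lower genes became 23 to 616 and 20 to 501 with 1 library left out, shifting over 1.5 times for each sgL1 library but 5 and lowest without sgL1 4. There the members called lower numbered 2 without the expression filter (B2M and ERAP2) and 0 to 1 with 1 library left out. Of all settings and single genes, 859 results kept their side of the threshold, 79 lost it, 18 gained it and 0 reversed while called. The cause of these shifts was not tested.

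The replicate numbers did not pair the libraries (correlations of deviations 0.012, -0.098 and -0.001 for numbers 1 to 3). With the replicate block, in which sgL1 4 to 6 have no partner, 1028 genes rose and 827 fell; 2 of the 38 rose (ISG15 and IFITM3) and 1 fell, ERAP2 in place of DTX3L.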
